A study of Mus musculus with 54 samples.

Results

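This section covers the first day of differentiation of Q133H myogenic progenitors. These are EMD-/y H2K mouse progenitors, which lack emerin, into which emerin carrying the Emery-Dreifuss muscular dystrophy (EDMD) mutation Q133H was introduced by lentivirus, followed by selection in puromycin. The members are the 6 libraries labelled Q133H at day 0 (3 replicates) and day 1 (3 replicates), of 54 libraries in 18 groups. For comparison, the same transition was taken from 6 libraries each of wildtype, EMD-/y, EMD-/y expressing wildtype emerin (+EMD), and EMD-/y expressing emerin Δ95–99. The emerin mutant line S54F is also in the series and was not compared here. Day 0 cells were plated densely and left overnight in proliferation medium with fetal serum, chick embryo extract, and γ-interferon. Day 1 cells had spent 24 h in differentiation medium with horse serum, for which no γ-interferon is listed. Medium, serum, interferon, and CO2 therefore changed together with the day, and their contributions cannot be told apart. The labels give the same temperature for both media, whereas the methods of the study give a lower one for proliferation, so temperature may have changed with them. Puromycin was kept in the medium of the mutant lines on both days and is not listed for wildtype. The methods of the study, however, list no puromycin in the differentiation medium. They also give puromycin selection for the +EMD line. For the RNA of differentiation the study seeded emerin mutant lines at a higher number of cells per well than wildtype and EMD-/y. The +EMD line is not named there, and in the differentiation assays of the study it was seeded at a higher number too. The question of the comparison is how transcription changes as these progenitors leave proliferation.

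Emerin is a LEM-domain protein of the inner nuclear membrane that binds lamins and chromatin. When myogenic progenitors lose growth signals they normally leave the cell cycle, the factor MyoD together with myogenin and MEF2 proteins switches on the genes of the contractile apparatus, and the cells then fuse into myotubes. H2K progenitors carry a conditional immortalizing gene driven by an interferon-inducible promoter, so they are grown with γ-interferon and differentiated without it.

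Each deposited value is 1 level per group and gene on a scale of normalized reads, not a value per library, so the spread between replicates cannot be given and no difference was tested. The labels speak of technical replicates made for each biological replicate and do not say which of the 3 replicates are which. For each gene the change is given as log2 of (day 1 level + 1) divided by (day 0 level + 1), and a gene entered where its 2 levels averaged at least 10. A gene was counted as higher or lower at day 1 at a ratio of at least 2-fold (log2 of at least 1 or at most -1), which describes these libraries and is not a test. The levels of all listed genes summed to 18956473 at day 0 and 18994684 at day 1. The Q133H day 1 libraries appear in 2 further tables, and there the level of a gene differed from the one used here by a median of 0.00143 and 0.00258 on the log2 scale after centring, and by over 2-fold for 17 and 21 genes.

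A set of genes with uncertain ratios is described before the results. These genes were kept in the counts below, those of the gene lists included. Of 675 predicted genes without a reference annotation that entered, 217 (32.1%) were past 2-fold, against 1257 of 12227 annotated genes (10.3%). From day 1 to day 2 in Q133H the shares were 10.8% and 10.3%. Some annotated genes with near-identical copies moved in the same abrupt way. Hmga1b, which encodes a chromatin-binding HMG protein and has 1 near-identical copy, went from a level of 23.9 to 382 in Q133H and from 7225 to 1326 in wildtype. Its copy Hmga1, chosen after its values were seen, had levels of 24292 and 28185 in Q133H and of 8367 and 1874 in wildtype. Hmga1 and Hmga1b added together differed by a log2 ratio of 0.23 in Q133H, so the large ratio of Hmga1b alone is uncertain. The same caution holds for Pebp1 (2 copies, log2 ratio 2.19), the histone gene H2ac24 (7 copies, 1.00), Gapdh (54 copies, -1.62), Rpl5 (6 copies, -1.49), and Rps13 (5 copies, -1.94), and for Atp5md (4.47) and Rps29 (-2.17), in which no copy was found by the same search. Of other genes named here, Acaca, Adam12, Atp2a1, Cacna1s, Ccn2, Ccnd1, Cdkn1a, Cdkn1c, Elovl6, H2-K1, Hmgcs1, Ifit3, Igf2, Ldhb, Mb, Mmp19, Rb1, and Tgfbr3 share such a stretch with 1 or 2 other annotated genes, and how their reads were assigned is not given. The cause of this pattern was not tested.

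In total, 711 of 12902 genes entered (5.51%) were at least 2-fold higher at day 1 and 763 (5.91%) were at least 2-fold lower. Predicted genes made up 116 of the higher and 101 of the lower ones. The shares of 5.51% and 5.91% stand beside the Q133H counts of each gene list below. In wildtype progenitors 1564 of 13142 genes (11.9%) were higher and 1296 (9.86%) were lower. The shares were 11.5% and 8.91% in EMD-/y, 9.76% and 6.64% in +EMD, and 6.99% and 6.18% in Δ95–99. Q133H progenitors thus had the fewest genes past 2-fold of the 5 lines compared. The deposited ratios are pulled toward 1, and not to the same degree in each line. A gene with 1 read in 1 library had a ratio of 1.08 to 1.10 in Q133H and of 1.16 to 1.18 in wildtype. In EMD-/y, +EMD, and Δ95–99 it was 1.12 to 1.15. How far this bears on the order of the lines was not tested. Of the 649 higher genes that also entered in wildtype, 320 (49.3%) were higher there too, which was 24.6% of the wildtype list, and 116 (17.9%) were at least 2-fold lower in wildtype. Of 703 lower genes, 223 (31.7%) were lower in wildtype as well (18.7% of the wildtype list), and 206 (29.3%) were at least 2-fold higher. In Δ95–99, 69.1% of the higher and 51.3% of the lower Q133H genes moved past 2-fold in the same direction (56.6% and 51.0% of the Δ95–99 lists), and 20 and 7 genes moved past 2-fold in the opposite one.

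**Figure D1:**
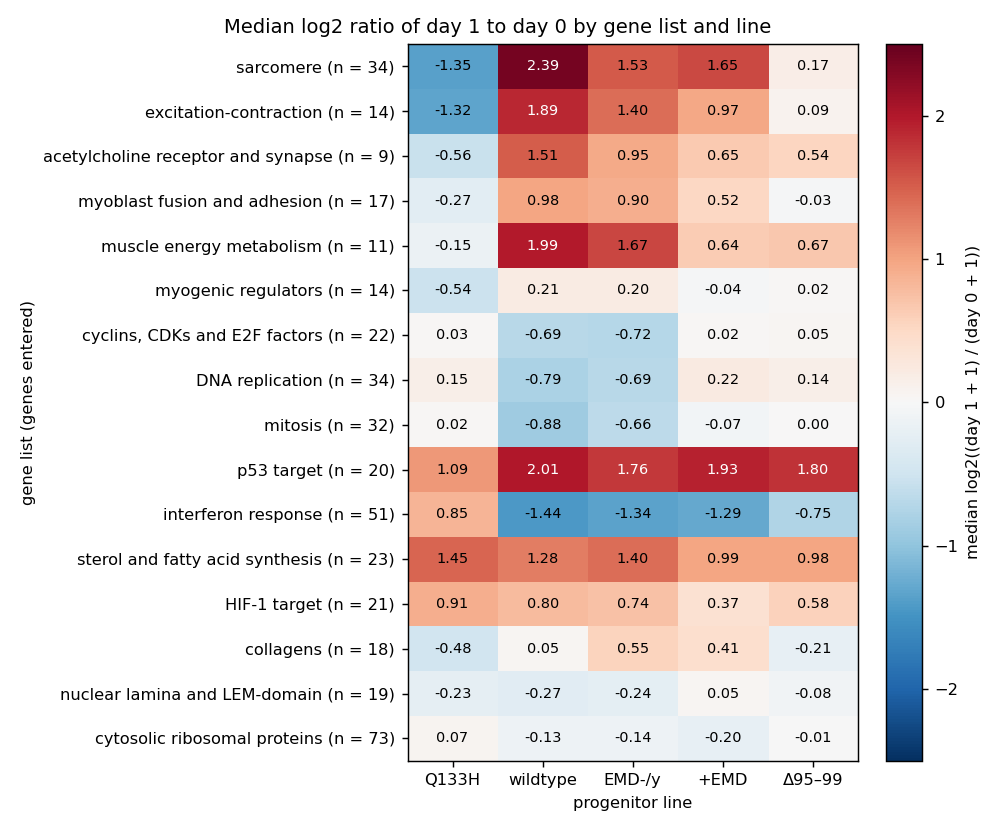
Median log2 ratio of day 1 to day 0 for 16 gene lists (rows, with the number of genes that entered in Q133H) in the 5 lines (columns), with the color following the printed median. Q133H had a negative median for sarcomere and excitation-contraction genes. These medians were positive in the other lines, but only 0.17 and 0.09 in the other emerin mutant line. Q133H had a positive median for interferon-response genes, which was negative in the other lines shown.

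The library labels were checked first. Endogenous mouse Emd was listed at 0.524 at day 0 and 0.460 at day 1 in Q133H, against 1888 and 1755 in wildtype. The transgene makes its own transcript and this check says nothing of its level. The cells carried the markers of myogenic progenitors, with 8 of 9 markers entered and a summed level of 54620 at day 0 and 41893 at day 1. Desmin (Des), the intermediate filament of muscle, had levels of 13213 and 10061, and the adhesion receptor gene Itga7 had levels of 6135 and 6020. Pax7, the factor that marks satellite cells, was the exception, with levels of 3.01 and 5.49 in Q133H and of 361 and 137 in wildtype. Markers of other cell types were under 10 on both days for 3 of 5 listed fibroblast genes, 3 of 5 adipocyte, 3 of 5 endothelial, 2 of 4 macrophage, 2 of 3 Schwann cell, and 1 of 4 smooth muscle genes. Among those near 0 were the leukocyte gene Ptprc (0.771 and 0.615), the adipocyte gene Plin1, the endothelial genes Cdh5 and Emcn, and the fibroblast gene Dpt. The summed marker level went from 1127 to 979 for fibroblasts, mostly Col1a1, from 1068 to 703 for adipocytes, mostly Cebpa, from 26.1 to 52.0 for endothelium, from 54.9 to 59.4 for macrophages, from 16.5 to 8.08 for Schwann cells, and from 25292 to 17251 for smooth muscle, mostly Acta2, which muscle precursors also express.

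Among the regulators of myogenesis, Mef2c and 3 inhibitors were lower at day 1 in Q133H. Of 14 regulators that entered, these 4 were at least 2-fold lower, 1 was at least 2-fold higher, 9 were past 2-fold in neither direction, and the median log2 ratio was -0.54, against 0.21 in wildtype and -0.01 over all genes entered in Q133H. In bulk RNA, fewer differentiating cells and less RNA in each cell cannot be told apart. Mef2c, a MADS-box factor that acts with MyoD on contractile genes, had a level of 1860 at day 0 and 479 at day 1 in Q133H. In wildtype it had 1427 and 3930, and on the same scale the Q133H level against wildtype was 0.36 at day 0 and -3.79 at day 1. Myog, which encodes myogenin and drives terminal differentiation, had levels of 5208 and 3322 in Q133H (log2 ratio -0.65) and of 7645 and 36642 in wildtype (2.26). Myod1, the determination factor, went from 11985 to 6545 in Q133H (-0.87) and from 13658 to 17183 in wildtype (0.33). The 2 genes did not pass 2-fold in Q133H. Myf5, the determination factor of the earlier progenitor state, went the other way, from 406 to 846 (1.06), while in wildtype it was 211 and 226. Myf6, the fourth factor of the family, averaged under 10. Id1, Id2, and Id3, which encode inhibitors that keep MyoD from its partners, were lower at day 1 by log2 ratios of -1.28, -1.24, and -1.04. They were lower in wildtype too, by -1.62, -2.27, and -1.98.

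Genes of the sarcomere, the contractile unit of muscle, were lower at day 1 as a group. Of 34 that entered, 27 were at least 2-fold lower and none was higher, with a median log2 ratio of -1.35 and a range of -2.53 to -0.08. In wildtype 32 of the 34 were at least 2-fold higher, with a median of 2.39, and all 27 genes lower in Q133H were among them. The medians were 1.53 in EMD-/y and 1.65 in +EMD. The other emerin mutant line lay between, with a median of 0.17. There 3 of the 34 were at least 2-fold higher, 2 were lower, and 12 had ratios below 0. The largest ratio in Q133H was that of Mybpc1, a myosin-binding protein of slow muscle, with levels of 87.1 and 14.2. Myom1, which encodes the M-line protein myomesin, had 267 and 46.2. Actn2, whose α-actinin anchors thin filaments at the Z-disc, went from 834 to 157 in Q133H and from 1320 to 7142 in wildtype. The myosin heavy chain genes moved with them. Embryonic Myh3 went from 7131 to 2814 (-1.34), perinatal Myh8 from 798 to 150 (-2.40), slow Myh7 from 538 to 117 (-2.19), and Myh1 from 3807 to 882 (-2.11). Divided by transcript length, Myh3 remained the most abundant of these myosins at day 1, with a level of 468 per kb against 145 for Myh1, 24.3 for Myh8, and 19.4 for Myh7. Skeletal actin (Acta1) had levels of 11372 and 4377. The members nearest to 0 were Tpm1 (-0.08), Des (-0.39), and the giant proteins Ttn (-0.41) and Neb (-0.50), with Actn3, a second α-actinin, at -0.48, none of them past 2-fold.

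**Figure D2:**
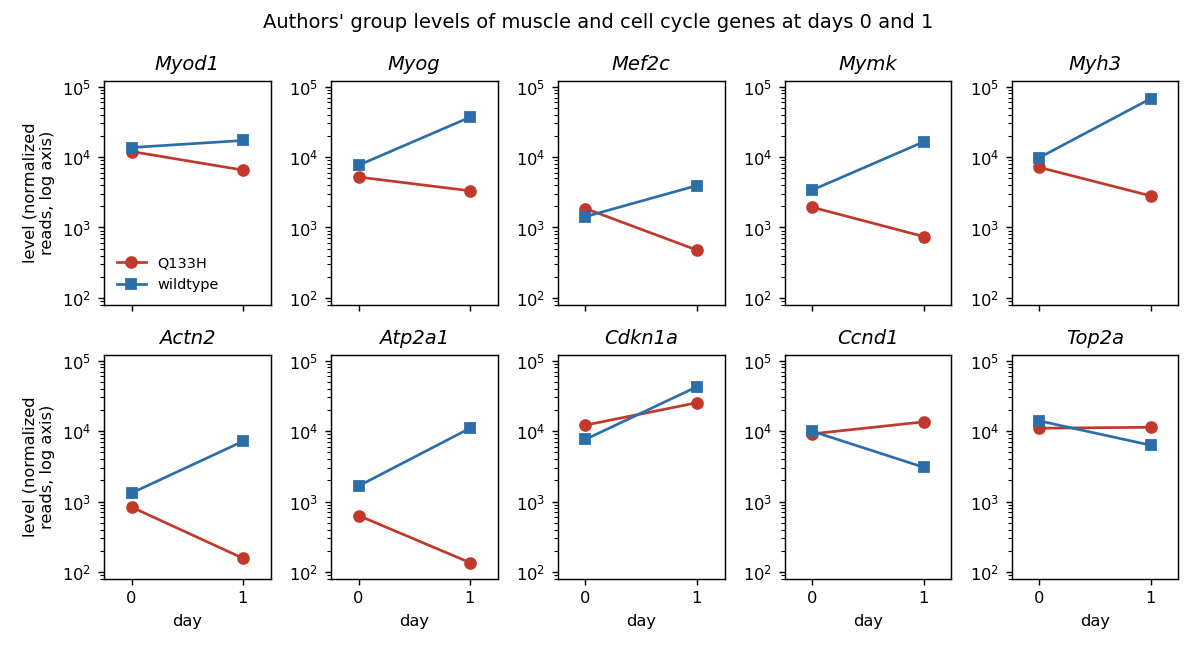
Authors' group levels (normalized reads, log axis) of 10 genes at day 0 and day 1 in Q133H (red circles) and wildtype (blue squares) progenitors, each point being 1 level for a group of 3 libraries with no error given. Lines began near each other at day 0 for most of the muscle genes and parted at day 1, as for Actn2 at 157 in Q133H and 7142 in wildtype.

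At day 0 these genes were near the wildtype level. Set against wildtype of the same day, the median log2 ratio of the sarcomere list was -0.10 at day 0, with 2 genes higher and 2 lower, and -4.39 at day 1, with 33 of 34 lower. From day 1 to day 2 the list was higher again in Q133H, with 33 of 34 genes at least 2-fold higher and a median of 2.52. Myog (2.27), Mef2c (2.61), Myh3 (2.07), and Acta1 (2.88) were among the genes higher at day 2. These comparisons share libraries with the transition studied and are given side by side only.

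The largest sarcomere change belonged to Mybpc1, and its promoter is shown with the E-box CAGCTG, a form of the site that MyoD family proteins bind, in capitals. The window runs from 250 bases before to 50 bases after the RefSeq start, at chr10:88605103-88605402 on the minus strand of GRCm38.p6, and is written 5′ to 3′.
Mybpc1: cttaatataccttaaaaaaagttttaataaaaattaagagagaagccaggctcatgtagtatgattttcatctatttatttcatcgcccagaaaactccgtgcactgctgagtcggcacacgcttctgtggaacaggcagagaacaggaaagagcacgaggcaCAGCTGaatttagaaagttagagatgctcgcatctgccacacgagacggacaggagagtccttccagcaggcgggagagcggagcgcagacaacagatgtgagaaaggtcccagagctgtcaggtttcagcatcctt
Of 26 sarcomere genes with such a window, 10 (38.5%) held CAGCTG on either strand in 1 of their windows, against 18.3% of all 27025 genes with windows. A match of letters is not a binding site.

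The other muscle lists differed in how many of their genes were lower. Of 14 excitation-contraction genes, which couple the membrane signal to calcium release, 10 were at least 2-fold lower and none was higher, with a median of -1.32. The calcium pump Atp2a1 had levels of 633 and 136, the junctional gene Trdn 265 and 61.1, and the calcium channel subunit Cacna1s 568 and 138. In wildtype 12 of the 14 were at least 2-fold higher, with a median of 1.89. Of 9 genes of the acetylcholine receptor and its synapse, 2 were lower, Dok7 (415 and 168) and the receptor kinase Musk (2204 and 1069), and the median was -0.56 (wildtype 1.51). Of 17 genes for fusion and adhesion, 4 were lower and none was higher. Cav3, the muscle caveolin, had levels of 206 and 32.4, the fusogen Mymk 1936 and 745, Adam12 406 and 159.5, and Ncam1 8266 and 4122. Mymx, which encodes the second fusogen, had 62.2 and 40.0 (-0.63). Among 11 genes of muscle energy metabolism 2 were lower, myoglobin (Mb, 481 and 122) and Cox6a2 (37.9 and 13.4), and the glycogen phosphorylase gene Pygm had 344 and 623 (0.86). The median of this list was -0.15, with 5 genes above 0, and its summed level went from 27213 to 33989. Creatine kinase (Ckm) was at 30.5 and 17.7 in Q133H and at 173 and 1877 in wildtype, but the same Q133H day 1 libraries are listed at 75.7 in the table against day 2, so its level is uncertain.

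The genes of the cell cycle stayed near their day 0 levels. Of 34 DNA replication genes and 32 mitosis genes, none was past 2-fold in either direction, with medians of 0.15 and 0.02 and ranges of -0.29 to 0.60 and -0.45 to 0.47. In wildtype 9 of the replication genes and 11 of the mitosis genes were at least 2-fold lower, and the medians were -0.79 and -0.88. Top2a, which untangles replicated chromosomes, had levels of 10978 and 11331 in Q133H and of 13956 and 6306 in wildtype. The proliferation marker Mki67 had 9804 and 7202 (-0.45) in Q133H and 10348 and 4290 in wildtype. The origin gene Orc1 (255 and 388) and the kinetochore gene Ndc80 (922 and 1273) had the largest ratios of these lists. Of 22 cyclins, CDKs, and E2F factors none was past 2-fold. Ccnd1, which encodes the cyclin D1 of early G1, had 9145 and 13513 in Q133H (0.56) and 9917 and 3063 in wildtype (-1.69). The medians of +EMD (0.22 and -0.07) and Δ95–99 (0.14 and 0.00) for replication and mitosis lay nearer to those of Q133H than to those of wildtype, and EMD-/y had -0.69 and -0.66. From day 1 to day 2 in Q133H, 24 of the 34 replication genes and 31 of the 32 mitosis genes were at least 2-fold lower.

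Of 29 mitosis genes with a promoter window, 22 (75.9%) held TTTGAA, the core of the cell cycle homology region, and 22 (75.9%) held CCAAT. The shares over all genes were 20.2% and 41.1%. Of 27 replication genes, 5 (18.5%) held the E2F form TTTGGCGC and 6 (22.2%) the form TTCCCGCC, against 0.585% and 2.52% of all genes.

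Among the inhibitors that halt the cycle, Cdkn1a, which encodes p21, was past 2-fold, with levels of 12148 and 25218 (1.05). In wildtype it had 7624 and 42456 (2.48). Cdkn1c, which encodes p57, had 190 and 299 in Q133H (0.65) and 127 and 2882 in wildtype (4.50). The retinoblastoma gene Rb1 had 1969 and 3247 (0.72) in Q133H and 1766 and 9855 in wildtype. Of the 10 pocket proteins and CDK inhibitors, Cdkn1a alone passed 2-fold in Q133H, against 3 in wildtype.

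Targets of p53, the stress-responsive factor that also controls Cdkn1a, were higher as a list. Of 20, 12 were at least 2-fold higher and none was lower, with a median of 1.09, and in wildtype 19 were higher, with a median of 2.01. Perp, a membrane gene of cell death, had levels of 79.5 and 280, Mdm2, the ligase that limits p53, had 5720 and 19485, Trp53inp1 had 3152 and 10177, and the antiproliferative gene Btg2 had 1220 and 3461. Cdkn1a is a member of this list as well as the former.

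**Figure D3:**
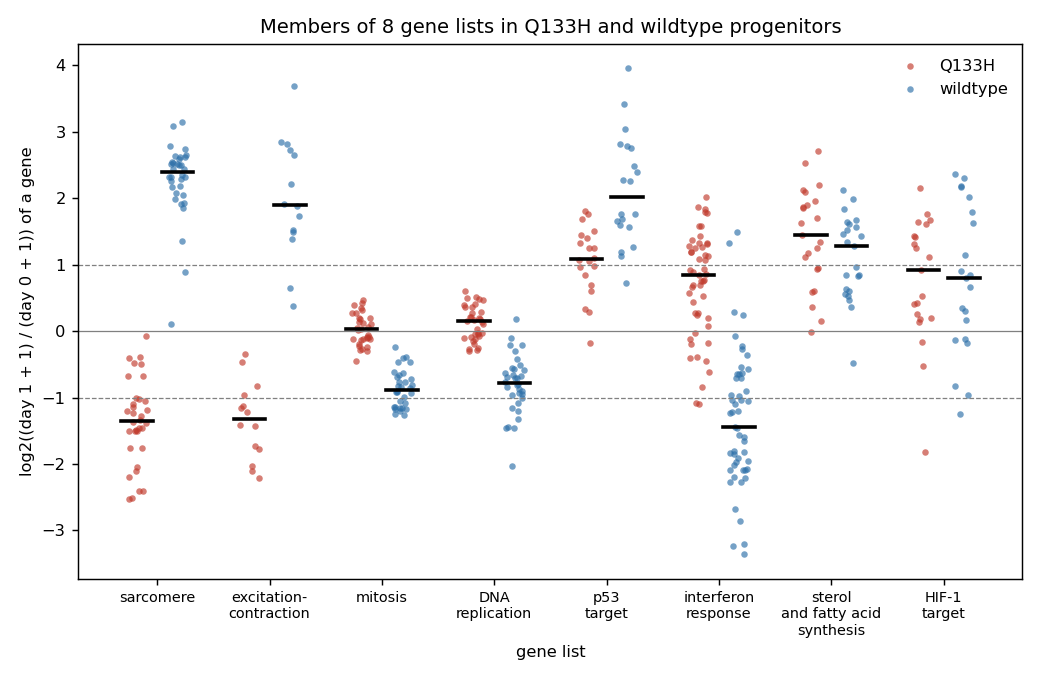
Log2 ratio of day 1 to day 0 for each member of 8 gene lists in Q133H (red) and wildtype (blue), with black bars for medians and dashed lines at 2-fold. Sarcomere and excitation-contraction genes lay below 0 in Q133H and above 0 in wildtype, mitosis and replication genes lay around 0 in Q133H, and the p53 and sterol lists had medians above 0 in both lines.

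Of 51 interferon-response genes that entered, which carry out antiviral defense and antigen presentation downstream of interferons, 21 were at least 2-fold higher at day 1 and 2 were lower, with a median of 0.85, although γ-interferon is not listed for the differentiation medium. The remaining 28 were not past 2-fold, and 11 of the 51 had ratios below 0. In wildtype 33 were lower and 2 were higher (median -1.44), and 12 of the 21 genes higher in Q133H were at least 2-fold lower in wildtype. The medians were -1.34 in EMD-/y, -1.29 in +EMD, and -0.75 in Δ95–99. The chemokine gene Cxcl10 had levels of 189 and 773 in Q133H and of 1917 and 186 in wildtype. The GTPase gene Igtp had 1609 and 5744 in Q133H and 20343 and 5430 in wildtype. On a common scale the log2 ratio of Q133H to wildtype for Igtp was -4.01 at day 0 and 0.32 at day 1, the latter under 2-fold. Ifit1, an RNA-binding antiviral gene, had 946 and 3469 in Q133H and was higher in wildtype too (172 and 430). Ifit3 had 258 and 899. The genes that present antigen on the cell surface did not share this direction. The class II genes H2-Aa and H2-Ab1 were lower, at -1.10 and -1.09, H2-Eb1 was at -0.03, and the class II chaperone gene Cd74 was at -0.84. The class I genes H2-D1, H2-K1, H2-T23, and H2-Q4 (7 copies) were at -0.44, -0.40, -0.40, and -0.19, and the β2-microglobulin gene B2m was at 0.08.

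Against wildtype the direction differed between the days. At day 0 the list had 33 of 51 genes lower and 3 higher in Q133H (median -1.5003), and at day 1 it had 2 lower and 14 higher (median 0.60). From day 1 to day 2 in Q133H the median was -0.27, with 4 genes lower and 1 higher. The interferon gene Ifnb1 was listed at 0.186 and 0.170, and Ccl5 and Lif, secreted signals on the cytokine list, were higher at day 1 with levels of 73.2 and 201 and of 284 and 587.

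**Figure D4:**
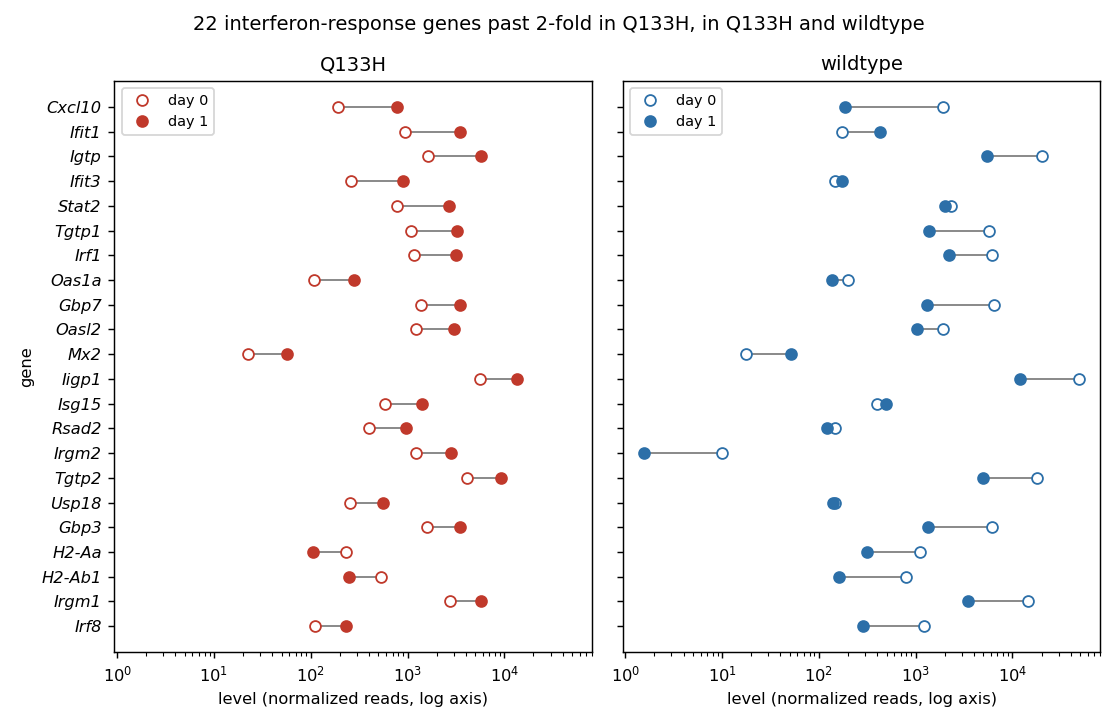
Authors' group levels (normalized reads, log axis) at day 0 (open) and day 1 (filled) of 22 interferon-response genes past 2-fold in Q133H, ordered by the size of their ratio, in Q133H (left) and wildtype (right). In Q133H 20 of the 22 filled points lie to the right of the open ones, whereas those of Cxcl10 and Igtp lie to the left in wildtype.

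The promoters of Cxcl10 and Ifit1, the list members with the largest ratios, are shown with matches to the interferon-stimulated response element, which STAT and IRF complexes bind, in capitals. Cxcl10 is at chr5:92348840-92349139 on the minus strand and Ifit1 at chr19:34640639-34640938 on the plus strand, from RefSeq on GRCm38.p6. The match in Cxcl10 reads on the opposite strand.
Cxcl10: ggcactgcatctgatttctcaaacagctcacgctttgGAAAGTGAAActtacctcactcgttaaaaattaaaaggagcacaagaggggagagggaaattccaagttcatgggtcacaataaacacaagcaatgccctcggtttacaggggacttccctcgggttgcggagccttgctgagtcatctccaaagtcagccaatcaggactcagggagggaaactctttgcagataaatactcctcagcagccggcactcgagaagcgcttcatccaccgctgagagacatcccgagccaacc
Ifit1: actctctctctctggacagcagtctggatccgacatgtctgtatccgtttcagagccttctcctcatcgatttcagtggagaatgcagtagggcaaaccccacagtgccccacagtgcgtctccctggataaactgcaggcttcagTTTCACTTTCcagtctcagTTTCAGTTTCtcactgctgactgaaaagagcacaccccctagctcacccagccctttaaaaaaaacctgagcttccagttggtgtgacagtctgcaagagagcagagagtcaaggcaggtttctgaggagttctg
Of 39 list members with a window, 21 (53.8%) held this motif, against 3.99% of all genes. None of the 26 sarcomere genes with a window held it.

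Sterol and fatty acid synthesis genes were higher in Q133H as in the other lines compared. Of 23, 16 were at least 2-fold higher and none was lower, with a median of 1.45, against 1.28 in wildtype, 1.40 in EMD-/y, 0.99 in +EMD, and 0.98 in Δ95–99. Idi1, an isoprenoid enzyme with 3 near-identical copies, had levels of 738 and 4829, Insig1, which retains the sterol sensor in the endoplasmic reticulum, had 495 and 2866, and Cyp51, a lanosterol demethylase, had 1071 and 4936. Hmgcs1, the synthase at the entry of the mevalonate pathway, had 1105 and 4012. Msmo1, a sterol oxidase among the 10 genes with the largest ratios, had 492 and 4577. Of the fatty acid genes the elongase gene Elovl6 was past 2-fold (1.11), whereas Fasn was at 0.95, Scd2 at 0.93, Scd1 at 0.60, Acly at 0.59, and Acaca at -0.01. The promoter of Hmgcs1, at chr13:119690101-119690400 on the plus strand of GRCm38.p6, held the sterol response element TCACNCCAC, a motif chosen after the values were seen and shown in capitals.
Hmgcs1: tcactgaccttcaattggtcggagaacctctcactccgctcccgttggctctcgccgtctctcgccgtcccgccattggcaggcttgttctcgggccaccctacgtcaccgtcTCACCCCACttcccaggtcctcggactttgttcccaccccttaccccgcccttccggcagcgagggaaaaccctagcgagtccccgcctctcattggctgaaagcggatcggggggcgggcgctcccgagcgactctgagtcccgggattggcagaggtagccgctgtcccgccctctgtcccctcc
It was the only one of 14 list members with a window that held the motif (7.14%), against 1.44% of all genes.

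Targets of HIF-1, the factor stabilized at low oxygen, were higher at day 1 in 10 of 21 cases and lower in 1, with a median of 0.91, close to the 0.80 of wildtype. Bnip3, a mitophagy receptor with 4 near-identical copies, had levels of 760 and 3369, Ankrd37 had 31.0 and 108, and the collagen hydroxylase Plod2 had 1943 and 6207. Of 17 glycolysis enzymes, Pfkl (1588 and 4432) and Ldhb (593 and 1439) were higher and Gapdh, uncertain as above, was lower. The shares were 11.8% and 5.88%, against 5.51% and 5.91% of all genes.

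Of 18 collagens, the fibers and networks of the extracellular matrix, 5 were lower at day 1 (27.8%, against 5.91% of all genes) and none was higher, with a median of -0.48, against 0.05 in wildtype and 0.55 in EMD-/y. All 3 chains of collagen VI were among the 5, with Col6a1 at 970 and 360, Col6a2 at 315 and 82.8, and Col6a3 at 205 and 70.8. Wildtype had log2 ratios of -0.06, -0.06, and -0.11 for these chains. Col5a3 (431 and 152) and Col7a1 (152 and 63.3) completed the group. Among 25 other matrix genes the shares were near those of all genes, with Fbln5 higher (196 and 545) and Thbs1 (40494 and 17830) and Sdc3 (3769 and 1779) lower. Of 19 proteases, inhibitors, and crosslinkers 5 were lower, among them Mmp19 (150 and 26.0) and Adamts2 (1380 and 397), with a median of -0.13 and 7 genes above 0. In wildtype 6 of them were lower.

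The counts in signaling lists are to be read against the 5.51% of all genes that were higher and the 5.91% that were lower. Of 22 Yap and Taz targets 5 were lower and none was higher. The 5 were led by Ccn2, a matricellular growth factor gene (4320 and 974), Fjx1 (67.9 and 15.9), and Nt5e (71.5 and 21.0). The median log2 ratio of this list was -0.21 in Q133H and was further below 0 in each other line compared. It was -0.57 in wildtype, -0.53 in EMD-/y, -0.58 in +EMD, and -0.49 in the other emerin mutant line compared. In that order 4, 2, 8, and 7 of these targets were at least 2-fold lower, and 1 was higher in each line. Of 22 TGF-beta and BMP genes 4 were lower, including Smad6 (325 and 102) and Tgfb2 (358 and 115), and the coreceptor Tgfbr3 was higher (59.3 and 208). Of 16 actin-cytoskeleton targets of SRF only Actg2 was past 2-fold (86.4 and 37.7), a share of 6.25%. The Notch list had 2 higher, the effector Hey2 (17.2 and 86.9) and the receptor Notch3 (1112 and 2412), and 2 lower, the modifier Lfng (220 and 28.1) and Heyl (54.9 and 12.8). Heyl was higher in wildtype, with 241 and 1710.

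Within the insulin-like growth factor axis, the growth factors Igf1 (150 and 53) and Igf2 (29870 and 14465) and the binding protein Igfbp4 (336 and 96.7) were lower, 3 of 13. In wildtype Igf1 and Igf2 were higher, by log2 ratios of 1.70 and 1.74. Of 15 apelin pathway genes 3 were lower, among them Ccn2 and Mef2c, and 2 were higher, the coactivator Ppargc1a (114 and 421) and the AMPK subunit Prkaa2 (155 and 361). Among 27 serum and ERK response genes Atf3 (16.9 and 95) and Ier3 (204 and 453) were higher and Egr2 (204 and 81.3) was lower, shares of 7.41% and 3.70%. Among 22 ATF4 and unfolded-protein genes Ddit3, which encodes CHOP, (118 and 429) and Sesn2 (1285 and 3048) were higher and the cystine carrier Slc7a11 (139 and 64.9) was lower, shares of 9.09% and 4.55%. The shares of the serum and ERK list and of the ATF4 list were near those of all genes. Those of the apelin list were 13.3% higher and 20% lower, from 15 genes. Nqo1 (1611 and 537), Gsta4 (384 and 187), and Slc7a11 were the 3 of 14 NRF2 antioxidant genes that were lower. On the cytokine list Ccl5 and Lif were the 2 of 12 higher, and Il1rn (80.8 and 31.6) was lower.

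None of 19 nuclear lamina and LEM-domain genes was past 2-fold. The nesprin gene Syne1 had the largest ratio, with 1495 and 898 in Q133H (-0.73) and 1213 and 3690 in wildtype (1.60). Lmnb2 had 1604 and 987, and Lmna, which encodes the A-type lamins, had 35801 and 22117. Of 73 cytosolic ribosomal protein genes 3 were lower, the uncertain Rps29, Rps13, and Rpl5, none was higher, and the median was 0.07.

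The lowest ratios among annotated genes averaging at least 100 were those of the kinase gene Camk1g (420 and 25.6, log2 ratio -3.99), the hormone gene Sct (486 and 47.7), the laminin chain Lamb3 (236 and 26.7), the inhibin subunit Inha (194 and 24.5), Lfng, Gm536, Fam167a, the lipolysis inhibitor G0s2, Zbtb7c, and Cav3. Camk1g, Lfng, and Fam167a were as low or nearly so in wildtype (-3.24, -3.16, and -2.57), whereas Inha and Zbtb7c had -0.30 and -0.21 there. The highest ratios, after the uncertain Atp5md and Hmga1b, were those of the endothelial lipase gene Lipg (23.1 and 316, log2 ratio 3.72), Msmo1, 1700007K13Rik, the pantetheinase Vnn1 (25.5 and 211), Atg9b, Nipal4, the protease St14, and Idi1. Vnn1 was at 1.87 and 8.36 in wildtype.

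Muscle genes made up the largest shortfalls against wildtype among genes averaging at least 100 in both tables. Hrc, a calcium-binding gene of the sarcoplasmic reticulum, had 204 and 58.6 in Q133H and 225 and 2905 in wildtype, a difference of log2 ratios of -5.46. Myh7 (-5.34), the actin-binding gene Ablim3 (-5.22), Atp2a1 (-4.93), and Actn2 (-4.84) followed. On the other side Cxcl10 had a difference of 5.38, and the other 4 genes, H2ac24, Atp5md, Hmga1b, and Pebp1, belong to the uncertain set.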

How the data were processed

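Poly-A RNA of H2K progenitors was sequenced as paired reads, and the sequencing provider filtered reads with SOAPnuke, mapped them to mm10 with HISAT2, and compared groups with DESeq2 (versions, counter, and annotation are not given in the sources used here). The library protocol does not mark strand, so overlapping genes on opposite strands cannot be told apart. The deposited tables also hold fold changes, p-values, and direction calls of these comparisons, which were not used. The deposited levels, a signal on the scale of normalized reads, come as 1 column per group. From the values, the average of the 2 columns of a table is the mean over 6 libraries of counts divided by size factors (0.935 to 1.07 in the Q133H table), since 100% of 2483 genes averaging under 1.5 were sums of whole multiples of 6 steps (tolerance 1e-08). The ratio of the columns is a moderated fold change: the 763 genes with 1 read in 1 library have levels above 0 in both groups and ratios of 1.08 to 1.10. Ratios of genes with few reads or a large spread are therefore pulled toward 1, and an average of 10 stands for about 60 normalized reads. Precision cannot be given per library.

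Among 27 deposited tables, 8 were used, through their group columns, and no column of a single library was present. Symbols for 15755 of 17269 genes came from RefSeq (GRCm38.p6), 1494 predicted genes were not named, and transcript lengths are the deposited ones. Ratios, counts, and medians were computed with Python 3.11.15, numpy 2.4.6, and pandas 2.3.3, figures with matplotlib 3.10.9, and the ratio and call rule was tested on simulated data. Near-identical copies (at least 200 bases at 97% identity) were searched with minimap2 2.31. Members and the 30 gene lists were chosen with earlier results of these data known. Named were the 10 highest and 10 lowest ratios averaging at least 100, the 2 to 4 largest of each list, fixed regulators and markers, and the 5 largest differences from wildtype in each direction. Further list members were named after their values were seen. Promoter motifs were searched on both strands of RefSeq windows of 300 bases. Alternatives were the pseudocount, the filter, the fold, centring, predicted genes, and levels from the tables against wildtype. Values of some genes are not reported here; the counts and medians of the lists include every member that entered.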

Additional observations from a re-analysis of the deposited data

How the results depend on the processing

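No paired analysis was possible because the tables hold 1 level per group, and for the same reason no replicate could be left out. The counts of 711 higher and 763 lower genes stayed within 1.5 times under pseudocounts of 5 and 0.1, no filter, centring on the median, leaving out predicted genes, and levels from the tables against wildtype. With an average of at least 100 they were 429 and 356, and the share of higher genes went from 48.2% to 54.6%. At 1.5-fold they were 1620 and 1713. Of 60 shares of gene lists past the fold in 1 direction, 6 moved outside their 95% exact binomial interval at 1.5-fold, 2 with an average of at least 100, and none under the other 6 alternatives. This interval treats the genes of a list as independent and is wide for short lists, so a share that stayed inside it says little about stability. Depth limits low genes, whose ratios are moderated most.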
